A study of Mus musculus with 2 samples.

Results

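Corticotrophs, the cells of the anterior pituitary that make adrenocorticotropic hormone (ACTH), were described here in 1 old and 1 young library of whole mouse pituitary glands. They were selected on measured transcript counts. A barcode was kept if it held at least 2000 UMIs (unique molecular identifiers, by which copies of a captured transcript are counted once), at least 500 detected genes and at most 15% of UMIs from mitochondrially encoded genes. A kept barcode was taken as a corticotroph if Tbx19 and Crhr1 together had at least 2 UMIs, Pomc took at least 1% of UMIs, Pax7 and Pcsk2 together had at most 4 UMIs, Prl took less than 2% of UMIs and Ghrhr had at most 1 UMI. These limits found 769 of 18993 kept barcodes, 252 of 9783 old and 517 of 9210 young ones. The old library came from male C57BL/6 mice, an inbred strain, at 20 months of age, and the young library from male mice of that strain at 2 months. Glands of 10 mice were pooled into each library, no genetic change or treatment is given for either age, and the anterior, intermediate and posterior lobes were dissociated together. With 1 library per age no difference was tested, and differences between mice, pools and preparations cannot be told apart from differences with age.

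Corticotrophs are driven by corticotropin-releasing hormone from the hypothalamus, which acts on the receptor Crhr1 and raises cyclic AMP, and by vasopressin, which acts on Avpr1b. Both lead to release of ACTH and to transcription of Pomc, which encodes proopiomelanocortin, a precursor cleaved to ACTH by the convertase Pcsk1. ACTH makes the adrenal cortex release glucocorticoids, which feed back on corticotrophs through the glucocorticoid receptor, Nr3c1. Melanotrophs of the intermediate lobe also transcribe Pomc and Tbx19, the lineage transcription factor of both cell types, but depend on Pax7 and cleave the precursor further with Pcsk2.

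The old library held 138427393 UMIs and the young library 154510099. No corticotroph barcode was shared between the libraries, and 31 kept barcodes were. The median corticotroph had 10296 UMIs and 3445.5 genes in the old library, against 9512 UMIs and 3170 genes in the young library, and mitochondrially encoded genes took 4.65% and 5.16% of UMIs at the median. A doublet score was computed for every kept barcode, and the highest scores, at the expected doublet rate, included 17 old and 30 young corticotrophs, which were retained. For comparison, 77 old and 21 young barcodes were gated as melanotrophs, 475 old and 1646 young as somatotrophs, and 39 old and 143 young as lactotrophs. T cells, 126 old and 77 young, served as a cell type that should lack pituitary genes. Every interval is at the 95% level and covers counting error only.

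The old corticotrophs included barcodes with levels of growth hormone and Pomc transcripts near those of empty droplets. A barcode was called Gh-rich where growth hormone, Gh, took more than 0.5 times its share in the empty droplets of the same library, which held 28.9% Gh in the old and 40.5% in the young library. By this measure 66 of 252 old corticotrophs were Gh-rich (26.2%, interval 20.9 to 32.1), against 3 of 517 young ones (0.580%, 0.120 to 1.69). The 66 Gh-rich old barcodes had medians of 3467 UMIs, 29.4% Gh and 0.462% of the nuclear RNA Malat1, against 14477 UMIs, 1.66% Gh and 4.96% Malat1 in the other 186 old corticotrophs. Pomc took a median 4.49% of the UMIs of the 66 Gh-rich old barcodes. Old empty droplets held 4.51% Pomc and 0.735% Malat1. The 514 young corticotrophs that were not Gh-rich had medians of 9474 UMIs, 3.05% Gh and 3.58% Malat1. Results are given for all corticotrophs, and the main ones again without the Gh-rich barcodes.

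The selected barcodes were checked against corticotroph genes that the limits did not use. Avpr1b, the vasopressin receptor of corticotrophs, had 54.3 CPM (UMIs of the gene per 1e6 UMIs, on a total without hormone and mitochondrially encoded genes) in old and 37.3 CPM in young corticotrophs. It had 1.37 CPM in old and 0.196 CPM in young somatotrophs, and no UMI in melanotrophs of either age. Neurod1, a transcription factor of the corticotroph lineage, had 99.7 CPM in old and 106 CPM in young corticotrophs, against 0.917 and 1.44 CPM in old and young somatotrophs, and again no UMI in melanotrophs. The interval of the Neurod1 ratio of corticotrophs over melanotrophs began at 17.0 in the old and 4.80 in the young library. With 3 counts taken for the melanotrophs of each library, the ratio was 21.0 in the old and 5.92 in the young one. Tnnt1, which encodes slow skeletal muscle troponin T and served here as a corticotroph marker, had 75.8 CPM in old and 368 CPM in young corticotrophs, with 2.75 and 5.56 CPM in old and young somatotrophs, 4.74 and 83.8 CPM in old and young melanotrophs and 1.21 and 52.4 CPM in old and young T cells. Empty droplets held 25.2 CPM of Tnnt1 in the old and 182 CPM in the young library. Gal, the galanin precursor, had 28.8 CPM in old and 7.18 CPM in young corticotrophs, below the 85.3 and 11.1 CPM of the empty droplets of those libraries, and did not mark them here. Pcsk1 had 226 CPM in old and 122 CPM in young corticotrophs, against 117 and 59.97 CPM in old and young somatotrophs, and was the least particular of the others. Over the summed barcodes, Avpr1b and Neurod1 thus went with the name corticotroph at both ages. Tnnt1 was higher in corticotrophs than in the other gated cells of the same library but was also present in the empty droplets of both. Without Gh-rich barcodes, old corticotrophs had 57.2 CPM of Avpr1b and 106 CPM of Neurod1. Tbx19 and Crhr1 together had a median of 2 UMIs in Gh-rich old barcodes, 3 at most, and of 4 in the other old ones. Whether the Gh-rich barcodes were corticotrophs was not tested.

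Outside the genes of the limits, Neurod1, Gpc5, Dsp and Cdh8 had the highest ratios of corticotrophs over somatotrophs in both libraries. Neurod1 was at 109 times its somatotroph level in the old and at 74.0 times in the young library. Gpc5, a heparan sulfate proteoglycan of the cell surface, was at 69.0 and 68.1 times in old and young corticotrophs, and Dsp, the desmosome protein desmoplakin, at 54.7 and 54.8 times. The cadherin Cdh8 was at 50.5 and 79.0 times. Nexn, an actin-binding protein of muscle, was at 25.6 and 52.3 times. Several of these also separated corticotrophs from melanotrophs, which share Pomc. Nnat, a small proteolipid of the endoplasmic reticulum, was 15.3-fold higher than in melanotrophs in the old library and 16.6-fold in the young one, and Cebpd, a glucocorticoid-induced transcription factor, 8.37-fold and 15.2-fold. Neurod1, Gpc5, Cdh8, Alpk2 and Nexn were among the 12 genes of highest ratio against both somatotrophs and melanotrophs. Because the gates were set on hormone genes, these ratios describe the gated cells and were not tested.

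Pomc itself was part of the selection, and its level is given as a description. It took 9.04% of all UMIs in old corticotrophs and 5.05% in young ones, a ratio of 1.79 (1.78 to 1.80). Single old corticotrophs ran from 1.03% to 35.9% with a median of 4.83%, and single young ones from 1.01% to 34.5% with a median of 2.61%, so the cells of the 2 ages overlapped over almost the whole range. Without Gh-rich barcodes the values were 9.54% and 5.09%, a ratio of 1.87. In melanotrophs, the other Pomc-producing cells, Pomc took 10.7% of UMIs in the old and 9.67% in the young library, a ratio of 1.10. Pomc was also higher in free RNA of the old library, at 4.51% in old and 1.14% in young empty droplets, and its part in the difference between corticotrophs was not tested.

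**Figure D1:**
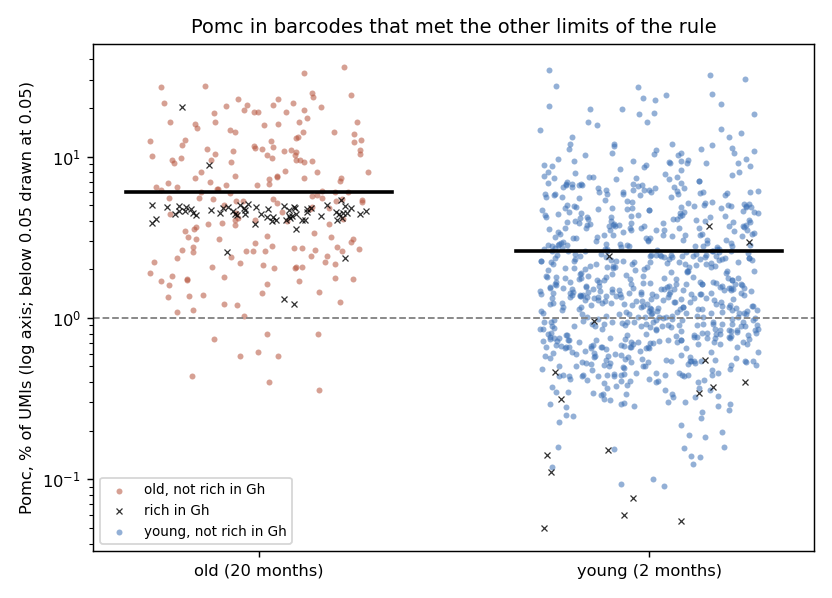
Pomc as a percent of all UMIs (log axis) in single barcodes that met every limit other than the Pomc minimum, in the old library (left) and the young library (right). Crosses are Gh-rich barcodes, the dashed line is the 1% minimum and the bars are medians of corticotrophs that were not Gh-rich, 6.00% old and 2.61% young; barcodes below the minimum number 9 of 261 old and 271 of 788 young ones.

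The Pomc minimum of 1% removed far more young than old barcodes. Of the barcodes that met every other limit, 9 of 261 old ones (3.45%, 1.59 to 6.44) and 271 of 788 young ones (34.4%, 31.1 to 37.8) lay below it. Near the minimum, 3 old and 51 young corticotrophs had 1 to 1.2% Pomc, while 1 old and 60 young barcodes with 0.8 to 1% lay just outside. Of barcodes that were not Gh-rich, with any level of Pomc, the median was 5.56% in 195 old and 1.53% in 771 young ones. In order of Pomc below 1%, from 1 to 2%, 2 to 5%, 5 to 10% and from 10% upward, these old barcodes numbered 9, 22, 54, 52 and 58, and the young ones 257, 190, 197, 87 and 40. At the other limits, 106 old and 140 young corticotrophs had exactly 2 UMIs of Tbx19 and Crhr1 together, the smallest number allowed. A further 836 old barcodes, of which 734 were Gh-rich, and 174 young barcodes, of which 5 were Gh-rich, met the remaining limits with 1 UMI. At the melanotroph limit, 8 old and 1 young corticotrophs had 3 or 4 UMIs of Pax7 and Pcsk2, and 1 old and 2 young barcodes lay just outside with 5 or 6.

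The 257 young barcodes of low Pomc that were not Gh-rich were compared with the young corticotrophs. Tbx19 had 350.4 CPM in the low-Pomc barcodes and 307 CPM in the 514 young corticotrophs, Crhr1 155 and 163 CPM, and Neurod1 91.2 and 108 CPM. Avpr1b had 25.6 CPM in the low-Pomc barcodes and 37.8 CPM in young corticotrophs, a ratio of 0.677 (0.483 to 0.934), and Gpc5 136 and 81.1 CPM, a ratio of 1.67 (1.42 to 1.97). The contractile genes were higher in the low-Pomc barcodes. Tnnt1 had 795 CPM there, against 372 CPM in young corticotrophs, a ratio of 2.13 (1.99 to 2.29), and Tnni3, cardiac troponin I, 159 CPM against 73.6 CPM. Pcsk1, the convertase that cleaves the precursor to ACTH, had 34.8 CPM in the low-Pomc barcodes and 123 CPM in young corticotrophs, a ratio of 0.284. Nr4a2, a nuclear receptor induced by corticotropin-releasing hormone, had 323 and 653 CPM. These young barcodes had a median of 8258 UMIs, against 9474 in the corticotrophs.

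The share of corticotrophs among hormone cells depended on where the limits were set. They made up 252 of 843 gated hormone cells at the old age (29.9%, 26.8 to 33.1) and 517 of 2327 at the young age (22.2%, 20.54 to 23.96), a ratio of 1.35. Without Gh-rich barcodes the shares were 23.9% and 22.1%, a ratio of 1.08. With neither a Pomc minimum nor Gh-rich barcodes the ratio was 0.831, and over all kept barcodes it was 0.459, with 2.58% in the old and 5.61% in the young library.

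Gene expression in old corticotrophs was compared with that in young ones on UMIs summed over the cells of each library. Of 12431 genes with at least 20 UMIs, 7043 (56.7%) had a ratio of old over young above 1, with a median log2 ratio of 0.06. A total of 570 genes (4.59%) were at least 2-fold higher in old corticotrophs and 282 (2.27%) at least 2-fold lower. Without Gh-rich barcodes 12328 genes were measured, of which 7085 (57.5%) had a ratio above 1, 526 (4.27%) were at least 2-fold higher and 298 (2.42%) at least 2-fold lower. The 2 sets shared 462 genes called higher, 81.1% of the larger set and 87.8% of the smaller, and 249 genes called lower, 88.3% and 83.6% of the calls with and without those barcodes.

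The 12 lowest ratios included D-type cyclins, troponins and immediate early genes, and in 8 of the 12 genes the 5 richest old cells held less than 30% of the old UMIs. Ccnd1, the D-type cyclin that drives entry into S phase, had 21.1 CPM in old corticotrophs and 194 CPM in young ones, a ratio of 0.109 (0.0805 to 0.144). At least 1 Ccnd1 UMI was seen in 10.7% of old and 73.1% of young corticotrophs, and in 3.97% and 25.1% after thinning each cell to 2000 UMIs. In T cells thinned in the same way, from medians of 6381 UMIs in the old and 4383 UMIs in the young library, the shares were 3.97% and 1.30%. T cells are no clear background for a cyclin. Old ones held 66.7 CPM of Mki67, a marker of cycling cells, against 0.810 CPM in old corticotrophs. Empty droplets held 31.0 CPM of Ccnd1 in the old and 123 CPM in the young library, and the part of free RNA was not tested. Ccnd2, a related D-type cyclin, had 370.3 CPM in old and 940.3 CPM in young corticotrophs, a ratio of 0.394 (0.366 to 0.423). Both were also lower in old somatotrophs, where Ccnd1 had a ratio of 0.121 and Ccnd2 of 0.472. Pde10a, a phosphodiesterase that breaks down cyclic AMP and cyclic GMP, had 218 CPM in old and 557 CPM in young corticotrophs, a ratio of 0.390 (0.355 to 0.429), and a ratio of 1.10 in somatotrophs. Gem, a small GTPase that restrains voltage-gated calcium channels, had 53.5 CPM in old and 149 CPM in young corticotrophs, a ratio of 0.360. Mfng, a glycosyltransferase of the Notch pathway, had a ratio of 0.407 and Pitpnc1, a phosphatidylinositol transfer protein, of 0.417.

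The troponin genes, markers of corticotrophs themselves, were among the lowest. Tnnt1 had a ratio of 0.206 (0.176 to 0.239), with a UMI in 26.2% of old and 65.4% of young corticotrophs before thinning, and in 6.75% and 34.4% after it. Tnni3 had 13.0 CPM in old and 72.5 CPM in young corticotrophs, a ratio of 0.179 (0.120 to 0.257). Of 26 muscle-type contractile genes, 9 were measured, with a median log2 ratio of -0.69, against 0.06 over all genes, and 4 of them were at least 2-fold lower, against 2.27% of all genes. The others of these 4 were Myl1, a myosin light chain, at 0.246, and Tpm2, a tropomyosin, at 0.311, while Myh7, a myosin heavy chain, was at 2.13. Melanotrophs had a Tnnt1 ratio of 0.0565 (0.0104 to 0.202), from 3 old and 14 young UMIs. The part of free RNA, given above for empty droplets, in the Tnnt1 ratios was not tested. The size of the Tnnt1 difference depended on the level of Pomc in cells that were not Gh-rich. At 1 to 2% Pomc the levels were 120 CPM in old and 563 CPM in young corticotrophs, and at 2 to 5% Pomc 113 and 382 CPM. At 5 to 10% Pomc they were 118 CPM in old and 156 CPM in young corticotrophs, a ratio of 0.756 (0.562 to 1.01), and at 10% upward 17.4 and 118 CPM.

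Of the 12 genes of highest ratio, some were spread over many old corticotrophs and others were concentrated in a few. Snhg11, a non-coding RNA of neurons and endocrine cells, had 265 CPM in old and 40.2 CPM in young corticotrophs, a ratio of 6.58 (5.57 to 7.81). It was detected in 50.4% of old and 12.6% of young corticotrophs, and after thinning in 25.0% and 5.22%, against 7.14% of old T cells and 0 of 77 young T cells. That count of 0 allows a share of thinned cells with a UMI of up to 3.90% when 3 counts are taken, and the upper end of the Clopper-Pearson interval is 4.68%. Its ratio was 7.77 in somatotrophs and 4.12 in melanotrophs. Rab3c, a GTPase of secretory vesicles, had 74.1 CPM in old and 23.8 CPM in young corticotrophs, a ratio of 3.12 (2.44 to 4.00), and Nrxn3, the adhesion molecule neurexin 3, had 53.5 and 11.7 CPM, a ratio of 4.58 (3.30 to 6.44). Mt3, a metallothionein, had 105 CPM in old and 39.7 CPM in young corticotrophs, a ratio of 2.64, but of 0.798 (0.208 to 2.20) in cells of 1 to 2% Pomc that were not Gh-rich. In these 4 genes the 5 richest old cells held less than 30% of the UMIs, from 15.9% for Snhg11 to 26.5% for Nrxn3.

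In 7 of the 12 genes of highest ratio, the 5 richest old corticotrophs held more than 50% of the UMIs. Retnlg and S100a9, genes of neutrophils, had ratios of 25.6 (14.3 to 50.5) and 7.78, and those cells held 94.7% and 88.3% of their UMIs. The chemokine Cxcl2, at a ratio of 4.58, had 84.3% of its UMIs in 5 cells. Trf, transferrin, had 68.5 CPM in old and 7.41 CPM in young corticotrophs, a ratio of 9.24 that was 4.24 without Gh-rich barcodes, with 87.0% of old UMIs in 5 cells. Rgs4, which turns off signalling by G proteins, had 65.2 CPM in old and 7.18 CPM in young corticotrophs, a ratio of 9.08 (6.18 to 13.7), with 68.9% of old UMIs in 5 cells and a UMI in 13.5% of old and 2.71% of young cells. Its ratio was 15.8 (6.38 to 46.7) in somatotrophs, with 6 young UMIs, and 12.1 (2.07 to 489) in melanotrophs, with 1 young UMI. Ttn, the giant muscle protein titin, was at 2.58, but at 0.505 (0.228 to 1.04) in cells of 5 to 10% Pomc that were not Gh-rich, and the growth factor Ptn was at 2.57 and at 0.998 (0.695 to 1.43) in those cells. Without Gh-rich barcodes Ano3, a membrane protein of the anoctamin family, at 2.72, and the potassium channel Kcnh7, at 2.65, took the places of Trf and Ptn among the 12 highest, and the 12 lowest genes were the same.

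**Figure D2:**
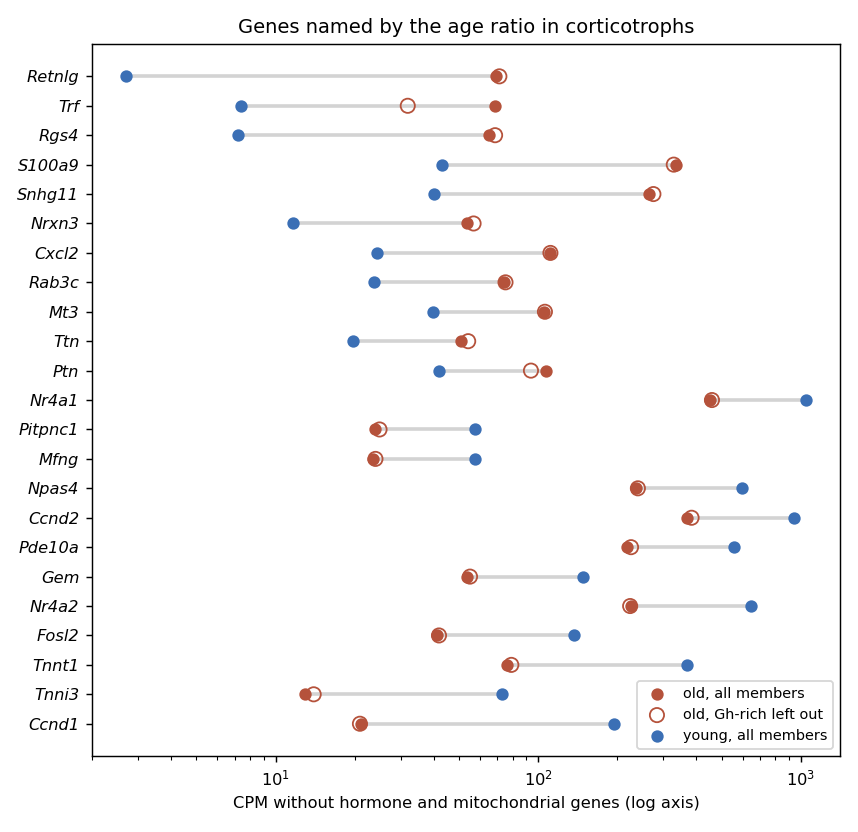
CPM (log axis, total without hormone and mitochondrially encoded genes) of the reported genes among the 12 of highest and the 12 of lowest ratio, in old corticotrophs (red, open circles without Gh-rich barcodes) and young corticotrophs (blue). Trf stands at 68.5 CPM old, 31.9 CPM old without Gh-rich barcodes and 7.41 CPM young, while for Ccnd1 both old values lie near 21.1 CPM, against 194 CPM young.

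Markers of other cell types were summed over the corticotrophs. Macrophage markers, 7 of 7 with a UMI in both libraries, had 1100.3 CPM in old and 337 CPM in young corticotrophs, and 810 and 341 CPM without Gh-rich barcodes. Neutrophil markers, 4 of 4 in both libraries, had 638 CPM in old and 75.0 CPM in young corticotrophs, and 623 and 76.1 CPM without those barcodes. B cell markers, 5 of 5 in old and 4 of 5 in young corticotrophs, had 258 and 15.5 CPM, and 71.6 and 15.7 CPM without. Empty droplets held more of each, with 6068 CPM of macrophage, 1174 CPM of neutrophil and 3289 CPM of B cell markers in the old library and 2549, 124 and 93.7 CPM in the young one. Melanotroph markers, 8 of 8 in both, had 87.5 CPM in old and 69.2 CPM in young corticotrophs. T or NK cell markers had 27.5 and 10.1 CPM, endothelial markers 30.8 and 6.74 CPM, fibroblast or pericyte markers 17.4 and 9.88 CPM, and gonadotroph markers 54.3 and 28.7 CPM. Stem cell markers had 146 CPM in old and 130 CPM in young corticotrophs, thyrotroph markers 277 and 236 CPM, pituicyte markers 84.7 and 75.0 CPM, and lactotroph markers 1694 and 784 CPM. Without Gh-rich barcodes, lactotroph markers had 1031 CPM in old and 789 CPM in young corticotrophs, and stem cell markers 109 and 131 CPM. Erythroid markers had 775 and 916 CPM with all corticotrophs, and 140 and 929 CPM without Gh-rich barcodes, and markers of cycling cells 8.51 and 13.0 CPM. Their part in the ratios of immune genes was not tested.

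Immediate early genes are transcribed shortly after a hormone or another stimulus reaches a cell, without the need for new protein, and most were lower in old corticotrophs. They are also known to respond to the dissociation of tissue, whose part here was not tested. All 28 listed genes were measured, 3 with a ratio above 1 and 25 below, against the 56.7% of all genes above 1. The median log2 ratio was -0.56, against 0.06 over all genes, and -0.54 without Gh-rich barcodes. At least 2-fold lower were 8 of the 28, against 2.27% of all genes. Fos, a subunit of the AP-1 transcription factor, had 7738 CPM in old and 11535 CPM in young corticotrophs, a ratio of 0.671. Junb, its partner, had 5206 and 9268 CPM, a ratio of 0.562, and Btg2, an inhibitor of proliferation, 4185 and 6881 CPM, a ratio of 0.608. The 3 genes above 1 were Ier3 at 1.76, Klf6 at 1.06 and Ier5 at 1.03, of which Ier5 was at 0.805 without Gh-rich barcodes.

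The 3 nuclear receptors of the Nr4a family, through which corticotropin-releasing hormone is known to raise Pomc transcription, were each more than 2-fold lower in old corticotrophs. Nr4a1 had 450.5 CPM in old and 1050.5 CPM in young corticotrophs, a ratio of 0.429 (0.401 to 0.458), and a UMI in 70.6% of old and 86.8% of young cells. Nr4a2 had 226 and 646 CPM, a ratio of 0.349 (0.318 to 0.382), and Nr4a3 had 12.2 and 45.1 CPM, a ratio of 0.269. In somatotrophs Nr4a1 had a ratio of 0.829 and Nr4a2 of 0.785, and in melanotrophs of 1.10 and 0.847. Npas4, a transcription factor induced by calcium entry, had 237 CPM in old and 599 CPM in young corticotrophs, a ratio of 0.395 (0.360 to 0.432). Fosl2, an AP-1 subunit, was at 0.302, the zinc finger factors Egr4 and Egr3 at 0.438 and 0.456, and Maff, a small Maf protein, at 0.475.

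The promoters of the Nr4a genes are shown because these 3 were lower together and are known targets of cyclic AMP signalling. They are RefSeq windows of GRCm38.p6 from 250 bases before to 50 bases after the annotated start, matched by symbol, while the counts were made on GRCm39. Capitals mark the short cyclic AMP response element (CRE) TGACG on either strand, which reads CGTCA where it lies on the other strand. The Nr4a1 window is chr15:101266596-101266895 on the plus strand, the Nr4a2 window chr2:57123954-57124253 on the minus strand and the Nr4a3 window chr4:48045055-48045354 on the plus strand.
Nr4a1: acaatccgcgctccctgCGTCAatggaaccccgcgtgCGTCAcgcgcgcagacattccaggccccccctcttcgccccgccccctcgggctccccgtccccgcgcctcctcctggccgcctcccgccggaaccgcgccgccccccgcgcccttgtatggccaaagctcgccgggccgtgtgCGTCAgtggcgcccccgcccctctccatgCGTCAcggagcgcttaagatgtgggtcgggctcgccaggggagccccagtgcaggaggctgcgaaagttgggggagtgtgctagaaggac
Nr4a2: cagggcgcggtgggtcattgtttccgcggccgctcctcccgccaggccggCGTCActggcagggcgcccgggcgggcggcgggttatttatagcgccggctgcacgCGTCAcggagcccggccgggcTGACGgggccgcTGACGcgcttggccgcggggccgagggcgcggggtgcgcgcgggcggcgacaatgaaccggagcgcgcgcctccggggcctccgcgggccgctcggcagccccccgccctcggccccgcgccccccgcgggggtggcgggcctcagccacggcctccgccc
Nr4a3: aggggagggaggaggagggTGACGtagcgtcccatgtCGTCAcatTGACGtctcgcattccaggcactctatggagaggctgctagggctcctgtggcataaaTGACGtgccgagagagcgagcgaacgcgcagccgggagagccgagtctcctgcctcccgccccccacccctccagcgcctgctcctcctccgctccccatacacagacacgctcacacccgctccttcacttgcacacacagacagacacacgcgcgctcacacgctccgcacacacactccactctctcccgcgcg
Each window held 4 matches, which started 233, 213, 69 and 40 bases before the start of Nr4a1, 200, 144, 123 and 111 bases before that of Nr4a2, and 231, 213, 205 and 147 bases before that of Nr4a3. The table held 30 windows for 23 of the 28 immediate early genes, and 19 of the 30 (63.3%) had at least 1 match, against 6837 of 32851 windows (20.8%) over all genes. The full palindrome TGACGTCA, which holds the short motif on both strands, was in 3 of the 30, those of Btg2, Dusp1 and Maff, and in 588 windows (1.79%) over all genes. The windows of Fosl2, the AP-1 gene of ratio 0.302, and of Pomc had no match to these letters. A match describes the sequence and not a bound site.

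The immediate early genes took other directions in the other gated cells. In somatotrophs 19 of the 28 had a ratio above 1, against 51.4% of all genes, and the median log2 ratio was 0.20, against 0.01. In melanotrophs 23 of 28 were above 1, against 52.3% of all genes, and the median was 0.59, against 0.03. Fos had a ratio of 1.15 in somatotrophs and 1.10 in melanotrophs, and Junb of 1.10 and 1.37. In every range of Pomc the list was lower in old corticotrophs that were not Gh-rich, with medians of -0.47, -0.41, -0.34 and -0.37 from 1 to 2%, 2 to 5%, 5 to 10% and 10% upward. The counts above 1 were 6 of 28, 4 of 28, 10 of 27 and 8 of 27 measured genes, against 49.4%, 54.6%, 54.1% and 56.6% of all genes. Nr4a1 itself had ratios between 0.386 and 0.499 over these ranges. The differences between cell types were not tested.

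**Figure D3:**
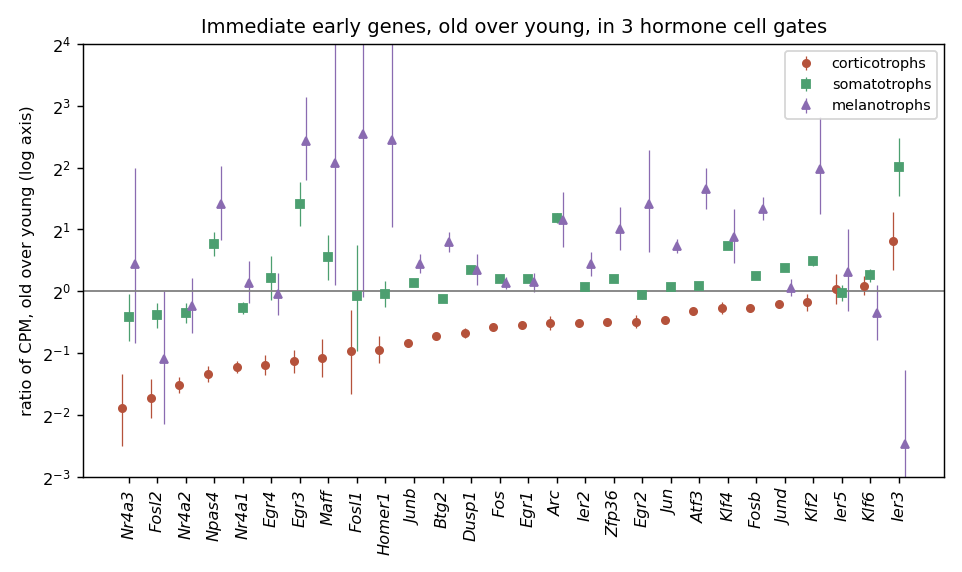
Ratio of CPM, old over young (log axis from 1/8 to 16), for each of 28 immediate early genes in corticotrophs, somatotrophs and melanotrophs, with 95% counting intervals that are drawn only within the axis. The corticotroph points of 25 genes lie below 1, while 19 genes in somatotrophs and 23 in melanotrophs lie above it.

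Of 48 listed receptors of corticotroph regulators, 27 were measured, 15 with a ratio above 1 and 3 at least 2-fold higher, against 56.7% and 4.59% of all genes, and the median log2 ratio was 0.07. Without Gh-rich barcodes 13 of 27 were above 1, with a median of -0.01, and 2 were at least 2-fold higher. Crhr1, which the limits used, had 142 CPM in old and 163 CPM in young corticotrophs, a ratio of 0.868. Avpr1b had a ratio of 1.46 (1.15 to 1.84), and between 1.10 and 2.68 over the ranges of Pomc from 1% upward. The glucocorticoid receptor Nr3c1 had 384 CPM in old and 469 CPM in young corticotrophs, a ratio of 0.819. The genes at least 2-fold higher were Esr1 at 2.13, Tgfbr2 at 2.05 and Drd2 at 6.92. Esr1 is the oestrogen receptor alpha and Tgfbr2 a receptor of transforming growth factor beta. Drd2, the dopamine receptor of melanotrophs and lactotrophs, had 23 old and 6 young UMIs, with 56.5% of the old ones in 5 cells. Old corticotrophs had 9.32 CPM of Drd2 and 15.8 CPM of Esr1, below the 33.4 and 44.3 CPM of old empty droplets. Without Gh-rich barcodes Esr1 had 12.2 CPM in old and 6.84 CPM in young corticotrophs, less than 2-fold higher. The epidermal growth factor receptor Egfr was at 0.700 and the interleukin 6 receptor Il6ra at 0.831.

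Of 33 measured genes of cyclic AMP signalling, which acts downstream of Crhr1, 12 had a ratio above 1, against 56.7% of all genes, and the median log2 ratio was -0.04. Rgs4, given above, and the adenylyl cyclases Adcy3 at 2.12 (1.06 to 4.31) and Adcy7 at 2.19 (1.02 to 4.80) were at least 2-fold higher, and Pde10a and Sik1 at least 2-fold lower. These were 3 and 2 of the 33, against 4.59% and 2.27% of all genes. Sik1, a kinase that cyclic AMP induces and that restrains its transcriptional output, had 20.3 CPM in old and 48.3 CPM in young corticotrophs, a ratio of 0.420. Rgs2, which turns off signalling by G proteins, had 51.9 and 90.0 CPM, a ratio of 0.576 that was 0.487 without Gh-rich barcodes, Sik2 was at 0.647, and Crem, a repressor and activator at cyclic AMP response elements, at 0.694. Of 29 measured glucocorticoid response genes 9 had a ratio above 1, against the same 56.7%, and the median was -0.12. Fkbp5 and Tsc22d3, which glucocorticoids induce in many tissues, had ratios of 0.979, or 1.01 without Gh-rich barcodes, and 0.925, while Per1, a clock gene, was at 0.621, Klf9 at 0.638, Cebpd at 0.599 and the metallothionein Mt1 at 0.624. Among 20 measured lineage transcription factors 7 had a ratio above 1, against the same 56.7%, and the median was -0.16. None of the 20 was at least 2-fold higher and 3 were at least 2-fold lower, against 4.59% and 2.27% of all genes. Tbx19, which the limits used, had 279 CPM in old and 304 CPM in young corticotrophs, a ratio of 0.920. Neurod1 was at 0.936 and Pitx1, a factor of all pituitary lineages, at 1.05, while the ETS factor Etv1 was at 1.66.

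Genes that process and store the Pomc product were mixed. Of 15 measured processing genes 7 had a ratio above 1, against 56.7% of all genes. Pcsk1 had 226 CPM in old and 122 CPM in young corticotrophs, a ratio of 1.85 (1.64 to 2.08), Pam, which amidates peptides, 307 and 191 CPM, a ratio of 1.61, and Qpct, which forms pyroglutamate at peptide ends, 18.2 and 6.96 CPM, a ratio of 2.62. Pcsk1n, an inhibitor of Pcsk1, had 1768 CPM in old and 2639 CPM in young corticotrophs, a ratio of 0.670, and the carboxypeptidase Cpe was at 0.891. Pcsk1 differed less between cells of like Pomc, with ratios of 1.49, 1.28, 1.34 and 1.16 over the ranges from 1 to 2%, 2 to 5%, 5 to 10% and 10% upward. Among 17 measured granule genes 13 had a ratio above 1, and 15 without Gh-rich barcodes, with a median log2 ratio of 0.17. The secretogranin Chgb had 1087 CPM in old and 605 CPM in young corticotrophs, a ratio of 1.80, and ratios from 1.94 at 1 to 2% Pomc to 1.17 at 10% upward. Vgf, the precursor of several neuropeptides, was at 2.09, Ptprn, a membrane protein of dense-core granules, at 1.71, Chga and Resp18 at 1.43 and Scg2 at 1.24.

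Exocytosis genes and ion channels held a few members past 2-fold in either direction. Of 25 measured exocytosis genes 16 had a ratio above 1, against 56.7% of all genes, with a median log2 ratio of 0.13. Of the 25, 1 was at least 2-fold higher and 2 at least 2-fold lower, against 4.59% and 2.27% of all genes. Doc2b, a calcium sensor of vesicle fusion, was at 2.06 and its relative Doc2g at 0.332, while Rab3a and Rab3b, GTPases of secretory vesicles, were at 0.666 and 0.638, in contrast to Rab3c at 3.12. The membrane fusion protein Snap25 was at 1.29 and Syt1, a calcium sensor of release, at 1.32. Of 44 measured channel genes 28 had a ratio above 1 and 5 were at least 2-fold higher, against 56.7% and 4.59% of all genes, with a median of 0.18. The sodium channel Scn2a had 30.0 CPM in old and 5.61 CPM in young corticotrophs, a ratio of 5.34, and was detected in 20.2% and 4.45% of cells. The potassium channel genes Kcna2 at 2.41 and Kcnmb4 at 2.08 and the calcium channel subunit Cacna2d2 at 2.35 were also among the 5. The sodium channel Scn9a was at 0.477.

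Genes of protein folding in the endoplasmic reticulum, where the Pomc precursor is folded, were higher by small amounts. All 36 listed genes were measured, and 33 had a ratio above 1, against 56.7% of all genes, with a median log2 ratio of 0.32, against 0.06. The chaperone Hspa5 had 1197 CPM in old and 897 CPM in young corticotrophs, a ratio of 1.33, the disulfide isomerase Pdia6 was at 1.39, and Xbp1, a transcription factor of the unfolded protein response, at 1.38. Trib3, a pseudokinase induced by that response, was the only gene past 2-fold, at 2.54, and Atf4, a transcription factor of the same response, was at 0.895. Over the ranges of Pomc the medians were 0.08, 0.17, 0.23 and 0.14, smaller than over all corticotrophs in each range, against -0.01, 0.06, 0.05 and 0.08 over all genes. Hspa5 had ratios of 1.32, 1.27, 1.32 and 1.38 from the range of 1 to 2% Pomc upward, and of 1.08 in somatotrophs and 1.70 in melanotrophs. As a list, the folding genes were above 1 in 11 of 36 in somatotrophs, with a median of -0.18, against 51.4% of all genes. In melanotrophs 26 of 33 were above 1, with a median of 0.27, against 52.3% of all genes.

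**Figure D4:**
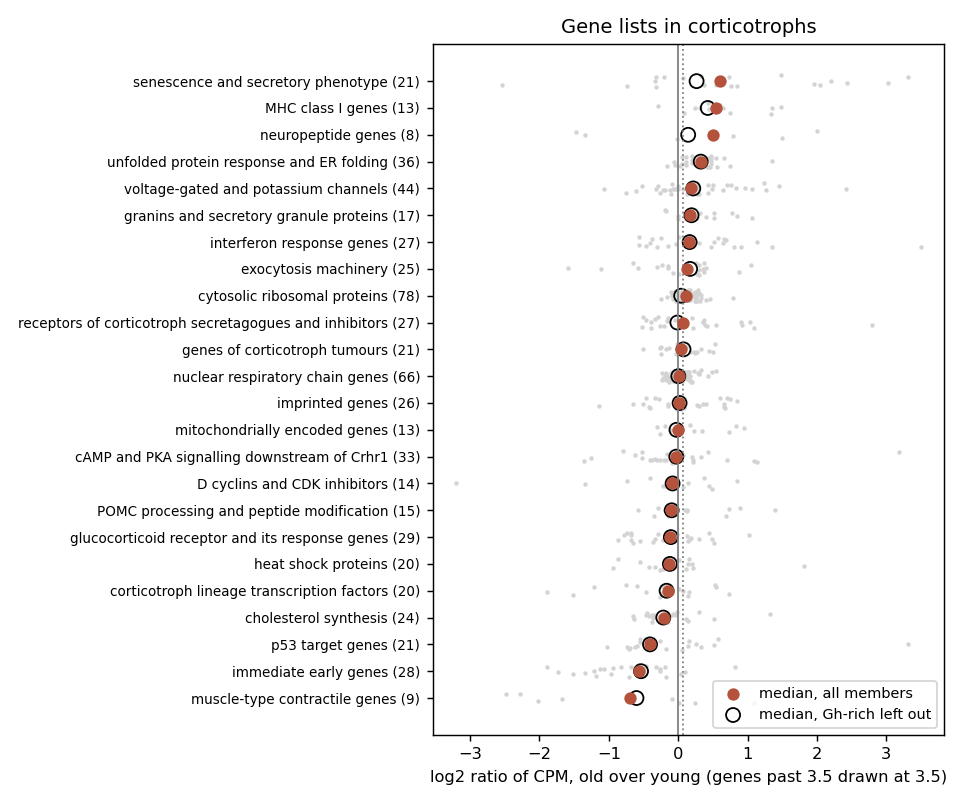
Log2 ratio, old over young, of each measured gene (grey points) in each gene list, with the list's median over all corticotrophs (filled) and without Gh-rich barcodes (open); the number of measured genes stands in brackets, the solid line is 0 and the dotted line the median of all genes. Immediate early genes have a median of -0.56 and unfolded protein response genes of 0.32, against 0.06 over all genes.

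Corticotrophs of high Pomc were compared with those of low Pomc within each library. Cells of each library were ranked by Pomc as a percent of UMIs and split into tertiles, 84 cells each in the old and 172, 173 and 172 in the young library. In the upper tertile Pomc ran from 6.86% to 35.9% in old and from 3.92% to 34.5% in young corticotrophs, and in the lower tertile from 1.03% to 4.14% and from 1.01% to 1.79%. The median cell had 18329 UMIs in the upper and 8834 in the lower tertile of the old library, and 10932 and 8220.5 in the young one, so depth went with Pomc. Of the 66 Gh-rich old barcodes 2 were in the upper, 49 in the middle and 15 in the lower tertile.

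Nmb, Pcsk1 and Resp18 were among the genes with the highest ratios of upper over lower tertile in both libraries. Nmb, which encodes the neuropeptide neuromedin B, had 189.8 CPM in the upper and 34.4 CPM in the lower tertile of old corticotrophs, and 158 and 5.42 CPM in young ones, ratios of 5.51 and 29.2. The 5 richest cells held 25.1% of its UMIs in old and 55.6% in young corticotrophs. The ratio of upper over lower tertile was 2.11 in old and 3.40 in young corticotrophs for Pcsk1, 2.34 and 2.80 for Resp18, a granule protein, and 2.12 and 2.59 for Crem. Cidea, a lipid droplet protein, was at 2.26 in old and 3.33 in young corticotrophs, and Cd63, a membrane protein of late endosomes, at 1.92 and 1.94. Lower with high Pomc were Egr3, a zinc finger factor, at 0.488 in old and 0.361 in young corticotrophs, Cebpd at 0.476 and 0.308, the Krueppel-like factor Klf9 at 0.490 and 0.480, and the phosphatases Dusp5 at 0.448 and 0.425 and Dusp2 at 0.496 and 0.374. Cdkn1a, an inhibitor of cyclin-dependent kinases, was at 0.479 and 0.476. Without Gh-rich barcodes Tnnt1 was also among them, at 0.408 in old and 0.355 in young corticotrophs.

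As lists, cytosolic ribosomal protein genes were higher in the upper tertile in 78 of 78 genes in both libraries, with median log2 ratios of 0.40 in old and 0.33 in young corticotrophs. Respiratory chain genes were higher in 61 of 66 in old and 62 of 66 in young corticotrophs, with the same medians. Immediate early genes were higher in 3 of 27 in old and 5 of 27 in young corticotrophs, with medians of -0.39 and -0.65, and glucocorticoid response genes in 7 of 26 and 6 of 26, with -0.26 and -0.37. Without Gh-rich barcodes the counts of glucocorticoid response genes were 3 of 25 in old and 6 of 25 in young corticotrophs, and the ribosomal medians 0.54 and 0.34. Unfolded protein response genes were higher in 25 of 34 in old and 23 of 34 in young corticotrophs. Over all 9345 genes 4273 (45.7%) were higher in the upper tertile in old and 4643 (49.7%) in young corticotrophs, with medians of -0.05 and 0.00. The median of the immediate early genes was thus lower in the cells with more Pomc at both ages. It was also lower in old than in young cells of like Pomc. Some members went the other way with Pomc in young corticotrophs that were not Gh-rich. There Nr4a2 had 599 CPM at 1 to 2% Pomc and 851 CPM at 10% upward, and Fosl2 127 and 222 CPM.

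**Figure D5:**
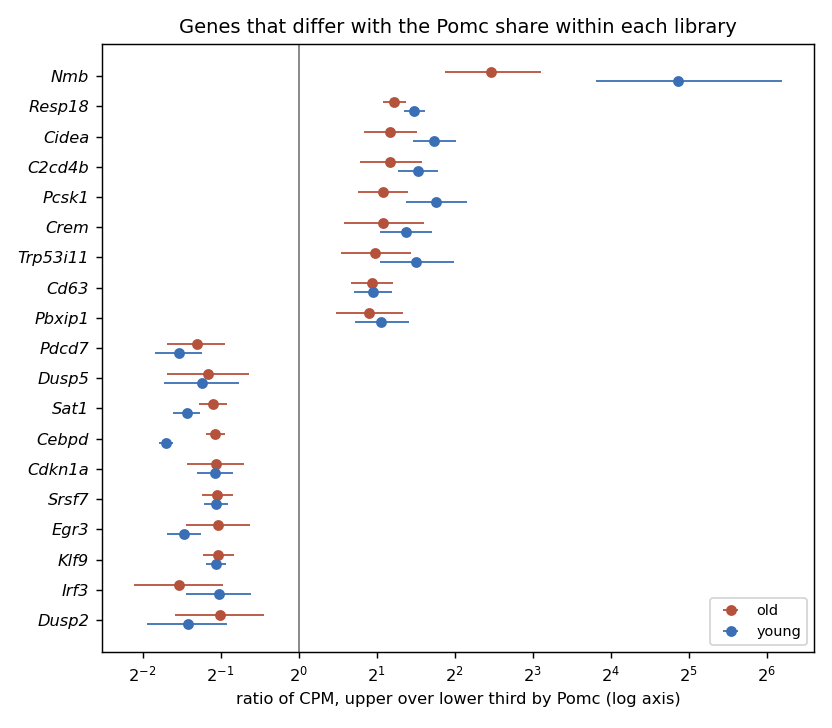
Ratio of CPM in the upper over the lower Pomc tertile (log axis) for the reported genes among the 10 of highest and the 10 of lowest ratio, in old (red) and young (blue) corticotrophs, with 95% counting intervals. Nmb stands at 5.51 in old and 29.2 in young corticotrophs, and Egr3 at 0.488 and 0.361.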

How the data were processed

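Droplet-based 3' single-cell RNA sequencing was done on dissociated whole glands, per the labels' protocols. The authors deposited raw, unnormalised UMI counts of every gene in every barcode seen, empty droplets included. Cell Ranger 6.0.2 and the build GRCm39 are named per the submitters' processing notes, while the file headers name version 4. Reads of overlapping genes were assigned by that software, and its settings are not given in the sources used here. The members, gene lists and alternatives were chosen with earlier results of these data known.

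Melanotrophs were gated by Pomc of at least 1%, Pax7 and Pcsk2 of at least 10 UMIs, Prl below 2% and Ghrhr of at most 1 UMI. Somatotrophs had Gh of at least 10%, Ghrhr of at least 2 UMIs, Prl below 2% and no UMI of Tbx19 or Crhr1, lactotrophs Prl of at least 5%, Ghrhr of at most 1 UMI and no UMI of Tbx19 or Crhr1, and T cells at least 2 UMIs of Cd3 genes and 1 of Ptprc. Barcodes of at most 100 UMIs were taken as empty droplets. The automatic doublet threshold of the Scrublet method marked 0.112% of old and 2.24% of young barcodes, so the 766 old and 679 young barcodes of highest score, at an expected 0.8% per 1000 barcodes, were used in its place. UMIs were summed per library, expressed as CPM without 7 hormone and 13 mitochondrially encoded genes, and compared as ratios with exact Poisson intervals conditional on the summed UMIs. Shares have exact Clopper-Pearson intervals. The calculation was tested on simulated data.

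Named genes were the 12 highest and 12 lowest ratios, ranked with 0.5 UMI added, among genes past 2-fold that reached 50 UMIs, 50 CPM and 0.5 times the level of empty droplets in whichever library was higher, without ribosomal protein, mitochondrially encoded and haemoglobin genes and unnamed gene models. Identity genes were the 12 of highest ratio in both libraries, and tertile genes the 10 highest and 10 lowest in both. List members are named beside their list. Some genes that these rules select are not reported here. Python 3.11.15 was used with scanpy 1.11.5, numpy 2.4.6, scipy 1.17.1, pandas 2.3.3 and matplotlib 3.10.9.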

Additional observations from a re-analysis of the deposited data

Results flagged for a closer look

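The ratios of 2 immediate early genes lay on opposite sides of 1 in corticotrophs and somatotrophs, each by at least 1.5-fold. Egr3, a transcription factor induced by cell activity, had 114 CPM in old and 251 CPM in young corticotrophs, a ratio of 0.456 (0.399 to 0.520), and 26.4 CPM in old and 9.87 CPM in young somatotrophs, a ratio of 2.67 (2.08 to 3.42). Npas4, which calcium entry induces, had a ratio of 0.395 (0.360 to 0.432) in corticotrophs, and 71.3 CPM in old and 42.0 CPM in young somatotrophs, a ratio of 1.70 (1.48 to 1.95). Without Gh-rich barcodes the corticotroph ratios were 0.475 for Egr3 and 0.396 for Npas4. The difference between the cell types was not tested.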

How the results depend on the processing

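Values are old over young. The corticotroph share of hormone cells (1.35) was 1.15 with at least 3 UMIs of Tbx19 and Crhr1, 1.10 and 1.82 with Pomc of at least 0.5% and 2%, and 1.08 without Gh-rich barcodes. It was 0.831 with neither a Pomc minimum nor Gh-rich barcodes, an alternative chosen after seeing the data, and 0.459 over all kept barcodes. The Pomc ratio (1.79) was 1.81 and 1.83 with at least 3000 and 5000 UMIs, 1.83 and 1.76 with at most 10% and 25% mitochondrially encoded UMIs, and 1.92 and 1.76 with at least 3 and 4 UMIs of Tbx19 and Crhr1. It was 2.17 and 1.46 with Pomc of at least 0.5% and 2%, 1.80 with at most 2 UMIs of Pax7 and Pcsk2, 1.87 without Gh-rich barcodes, 2.46 with no Pomc minimum as well, 1.85 between medians of cells and 1.78 with the empty profile subtracted. The 570 genes at least 2-fold higher became 377 with at least 4 UMIs of Tbx19 and Crhr1, 891 with the mean over cells, 103 with a minimum of 100 UMIs and 2884 with 1 UMI, and the 282 lower ones 455, 71 and 2202 under the last 3 of these. Over the list medians, 409 kept their value within 0.25 on the log2 scale, 18 moved and 4 reversed: that of neuropeptide genes to -0.033 and -0.14 with at least 3 and 4 UMIs of Tbx19 and Crhr1 and to -0.32 at 2 to 5% Pomc, and that of MHC class I genes to -0.038 at 2 to 5% Pomc, an alternative also chosen after seeing the data. Of the ratios of single named genes under these alternatives, 358 stayed within 1.5 times, 50 moved and none reversed, but over the 4 Pomc ranges, without Gh-rich barcodes, 9 of the 12 higher genes kept their direction: Ttn was at 0.505 at 5 to 10%, Ptn at 0.998 there and Mt3 at 0.798 at 1 to 2%. The cause was not tested. Leaving out the 5 richest members of each gene was likewise added after seeing the data. No paired analysis was possible because the ages share only replicate number 1. With 1 library per age no library could be left out, and counting depth limits genes of few UMIs.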

Other observations

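MHC class I genes, which present peptides to T cells, had a ratio of old over young above 1 in 12 of 13 measured genes in corticotrophs, against 56.7% of all genes, with a median log2 ratio of 0.55, and of 0.42 without Gh-rich barcodes. B2m, their shared light chain, was at 2.55 with all corticotrophs and at 1.93 without Gh-rich barcodes, and the 5 richest cells held 20.2% of its old UMIs. Interferon response genes were above 1 in 18 of 27, with a median of 0.15. Genes of senescence and its secreted factors were above 1 in 15 of 21, with a median of 0.61 that was 0.26 without Gh-rich barcodes. Il1b, an inflammatory cytokine, was at 8.09 with 78.7% of its old UMIs in 5 cells, and Gdf15, a stress-induced hormone, at 9.92 with 72.7% in 5 cells. In somatotrophs MHC class I genes were above 1 in 11 of 13, with a median of 0.51, against 51.4% of all genes. Senescence genes were above 1 there in 20 of 28, with a median of 0.44. In melanotrophs the counts were 4 of 8 and 3 of 10, with medians of 0.07 and -1.16, against 52.3% of all genes.

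Over all genes in corticotrophs 56.7% had a ratio above 1, with a median log2 ratio of 0.06, and the corticotroph list counts that follow stand beside that share. Genes of cholesterol synthesis, the pathway of sterol production, were above 1 in 5 of 24, with a median of -0.20, and p53 target genes in 8 of 21, with a median of -0.40. In somatotrophs these 2 lists were above 1 in 4 of 24 and 6 of 22, against 51.4% of all genes. In melanotrophs they were above 1 in 9 of 15 and 9 of 16, against 52.3%. Cdkn1a, an inhibitor of cyclin-dependent kinases, had 128 CPM in old and 214 CPM in young corticotrophs, a ratio of 0.597, and Gadd45a, a stress-induced gene, was at 0.683. Genes of D-type cyclins and kinase inhibitors were above 1 in 6 of 14, heat shock genes in 7 of 20, with the chaperone gene Hspa1a at 0.520, imprinted genes in 13 of 26, with the non-coding RNA Meg3 at 1.52, and genes of corticotroph tumours in 12 of 21. Cytosolic ribosomal protein genes were above 1 in 63 of 78, with a median of 0.10, and without Gh-rich barcodes in 49 of 78, with 0.04, against 57.5% of all genes, while respiratory chain genes were above 1 in 34 of 66, with 0.01, and mitochondrially encoded genes in 6 of 13, with -0.01. Of 8 measured neuropeptide genes 5 were above 1.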
